A study of Mus musculus with 8 samples.

Results

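Star microRNAs are the strands that older microRNA nomenclature marked with an asterisk, and they were followed here across Csk-deficient mouse fibroblasts with and without c-Src and Csk. The members were all mouse names on the array that ended in an asterisk, without miR-140*, miR-199b*, miR-214*, miR-322* and the names of the miR-297, miR-466, miR-467 and miR-669 families. This gave 107 of the 611 mouse microRNAs measured, and 8 further star names were left out by the rule. For 97 members the array also held the partner strand under the same name without the asterisk, called the guide here, and for 10 it did not.

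All cells were Csk-/- mouse embryonic fibroblasts of strain C57BL/6J, so the controls lacked Csk too. They had been transfected with an empty vector (mock), with c-Src, with Csk and c-Src, or with Csk, and each of the 4 groups had 2 arrays. Csk is the kinase that phosphorylates the inhibitory tyrosine in the tail of c-Src, and the series title names transformation by c-Src as its subject. The vector's promoter, the duration of expression, clonal origin and the age of the embryos are not given in the sources used here. The arrays measured microRNAs only, so neither transgene could be checked.

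A microRNA precursor folds into a hairpin and is cut to a short duplex of 2 strands, which come from its opposite arms. Argonaute keeps one strand, usually that whose 5′ end is less tightly paired and often starts with U or A, and the other, the passenger or star strand, is mostly degraded. Some star strands nevertheless remain at measurable levels and repress targets of their own through their own seed. Where both strands come only from the same gene, their amounts depend on the shared precursor and their ratio on strand choice and decay. Where several genes make the same guide, the ratio also depends on how much each gene is used.

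Mature sequences for 32 of the 35 members that could be tested were found in RefSeq (GRCm38.p6), and those the results turn on are shown 5′ to 3′ with the seed, bases 2 to 8, in capitals. The first set holds strands with a shared or near-identical seed, whose levels can be set against each other only with that likeness in mind, and the common guide of both miR-24 genes.
miR-24-1*: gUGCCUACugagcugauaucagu
miR-24-2*: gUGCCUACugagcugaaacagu
miR-24: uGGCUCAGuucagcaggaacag
miR-30a*: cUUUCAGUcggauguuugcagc
miR-30e*: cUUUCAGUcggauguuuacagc
miR-29a*: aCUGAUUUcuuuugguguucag
miR-29b*: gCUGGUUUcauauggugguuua
let-7a*: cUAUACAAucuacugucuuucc
let-7b*: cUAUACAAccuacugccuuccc
let-7f*: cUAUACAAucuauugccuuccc

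The second set holds the strands with the highest signals or the largest changes.
miR-31*: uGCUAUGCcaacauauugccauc
miR-17*: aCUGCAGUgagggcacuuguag
miR-674*: cACAGCUCccaucucagaacaa
miR-15b*: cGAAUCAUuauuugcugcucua
miR-22*: aGUUCUUCaguggcaagcuuua
miR-21*: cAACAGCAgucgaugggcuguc
miR-135a*: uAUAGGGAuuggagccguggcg
miR-7a*: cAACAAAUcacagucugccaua
let-7c-1*: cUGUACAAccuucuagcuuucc
miR-872*: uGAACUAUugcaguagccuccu
miR-130b*: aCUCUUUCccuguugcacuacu

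Among the 32 sequences were 28 different seeds. let-7a*, let-7b* and let-7f* shared the seed UAUACAA, miR-24-1* and miR-24-2* shared UGCCUAC, and miR-30a* and miR-30e* shared UUUCAGU. miR-24-1* and miR-24-2* were identical over their first 16 bases and differed in their 3′ ends. miR-30a* and miR-30e* differed by the single substitution G18A, counted from the 5′ end, and let-7b* and let-7f* by C9U and C13U. How far probes for such close pairs read each other's strand was not tested. The array's annotation gives 2 mouse microRNA names for the probes of let-7a*, so its signal may not be that of let-7a* alone. Of the 32 stars, 25 came from the 3p arm and 7 from the 5p arm. C was the first base of 15 stars and U of 6, whereas the opposite arms of the same genes started with U in 19 cases and with C in 4. miR-24-3p is the opposite arm of both miR-24 stars and was counted for each.

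The gene of miR-24-1* lay on chromosome 13 (chr13:63301213-63301235, plus strand), inside the annotated span of the protein-coding gene Aopep and within 50 kb of Mir23b and Mir27b. miR-24-2* came from chromosome 8 (chr8:84208839-84208860, plus strand), beside Mir23a and Mir27a and inside no other annotated gene span. miR-29a* (chr6:31062711-31062732, minus strand) and miR-29b* (chr6:31063067-31063088, minus strand) were neighbours. miR-30a* (chr1:23272315-23272336, plus strand) lay near miR-30c-2*, and miR-30e* (chr4:120772618-120772639, minus strand) lay within Nfyc. miR-22* (chr11:75463734-75463755, plus strand) lay within its long noncoding host gene Mir22hg, and miR-31* (chr4:88910577-88910599, minus strand) within the noncoding gene Gm49890. miR-21* (chr11:86584082-86584103, minus strand) fell in the span of Vmp1. miR-135a* (chr9:106154179-106154200, plus strand) fell in the spans of the noncoding gene D030055H07Rik and of Glyctk. Spans were matched by position without regard to strand, and exon and intron positions were not analysed here.

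Most star strands were not detected in these fibroblasts. The scanner software called 38 of the 107 members (35.5%) detected on at least 1 array, against 43.5% of the other 496 mouse microRNAs, and 28 to 36 members were detected on any one array. Together the members held between 1.06% and 1.25% of the summed mouse microRNA signal of an array, and miR-31* alone held 24.0% to 37.0% of the members' signal. Detected on all 8 arrays were 22 members. A test needed detection on both arrays of some group, which 35 members met. miR-125b* and miR-744* were detected on 1 array each and miR-186* on 2, and these were not tested. The remaining 69 were detected on 0 arrays.

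Of the 97 members with a guide on the array, 31 were detected together with it. For 27 the guide was detected and the star was not, and for 37 neither was. Only miR-135a* and miR-191* were detected while their guides were detected on 0 arrays. Whether these guides were absent or missed by their probes was not tested. miR-135a* was detected on 6 arrays, the 6 that had received c-Src, Csk or both.

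The array's own limits set the scale of what follows. A level is the summed signal of a microRNA's probes as a percent of a reference value of the same array, the 75th percentile of the 187 microRNAs that all arrays detected, and values under a floor of 1.93% were set to it. A fold against a group in which no array detected the star, or both arrays were set to the floor, is therefore a lower bound, written "at least". Signals of different probes are not amounts that can be compared, so a star to guide ratio is used only for its change between groups. Csk array 2 stood apart, with 696 spots marked as outliers against 270 to 351 on the other arrays and with the fewest members detected (28). Each group occupied its own column of the single slide, so group and slide column cannot be told apart. The labels call the 2 arrays of a group biological replicates, while the series text speaks of duplicates without saying whether cultures were separate, so p-values measure the spread between these arrays, which may be technical. In bulk RNA, fewer cells that make a strand and less of it per cell cannot be told apart. miR-93* was at the floor on all 8 arrays. Arrays set to the floor show no spread, so standard errors and p-values of strands with such arrays can be too small. Differences were tested with limma over all 243 microRNAs tested, and "passed" means a two-sided adjusted p under 0.05 (Benjamini-Hochberg).

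These calls depend on the background already subtracted by the scanner software. Normexp models the background anew from the mean and local background signals. With it, 7, 1, 0 and 0 members passed by limma in the 4 pairwise comparisons in the order given here, and 1 in the interaction. These were not all the same strands and directions as in the main fit. Of the 70 differences called there, 5 kept their call with normexp, 29 kept only their direction and 36 had the opposite sign. Most stars are dim, and the median member probe measured 7.33 to 9.79 signal units as deposited but 66.7 to 104.5 after normexp with an offset of 50, with 104.5 on mock array 1 and at most 70.4 on the others.

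Of the 35 tested members, 24 passed in at least 1 of the 5 comparisons and 11 in none. Of these 24, 12 had their highest mean level in Csk cells, 9 in c-Src cells, 2 in Csk+c-Src cells and 1 in mock cells. These counts were not made over all 243 microRNAs tested, so they are not read as particular to the stars. In each of the 5 comparisons a smaller share of members passed (28.6% to 48.6%) than of all tested (44.4% to 60.9%). Of all tested, 38.3% were higher and 16.9% lower in Csk than in mock cells. In Csk+c-Src against Csk 19.3% of all tested were higher and 41.6% lower.

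**Figure D1:**
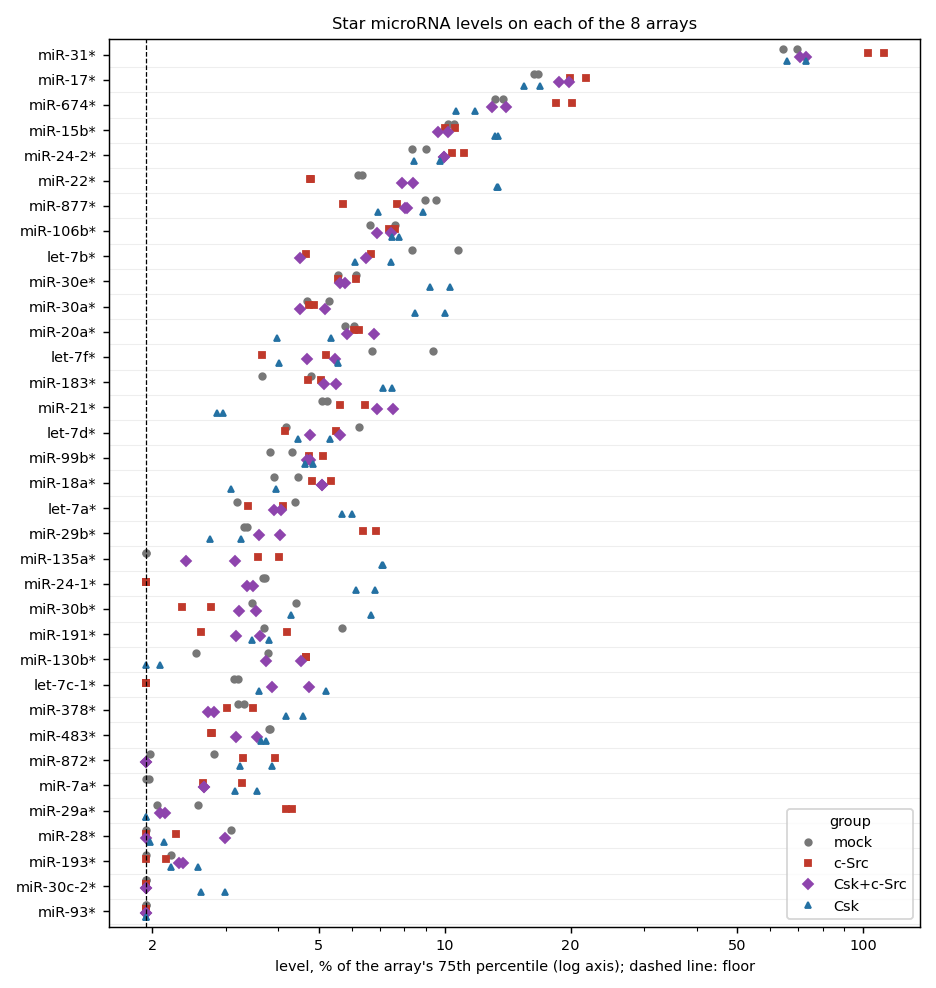
Levels of the 35 tested star microRNAs on each of the 8 arrays, as percent of the array's 75th percentile on a log axis, with the 1.93% floor dashed. miR-31* ran from 64.4% to 112%, miR-93* stood at the floor on all 8 arrays, and the 2 Csk arrays of miR-22* (13.4% on both) lay above all other arrays of that strand.

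The strand with the highest signal was miR-31*, the partner of a microRNA known as a regulator of invasion and metastasis in breast cancer. It measured 64.4% and 69.5% on the mock arrays, 103% and 112% with c-Src, 70.8% and 72.9% with Csk and c-Src, and 65.9% and 73.1% with Csk. Only the c-Src arrays stood apart, and the other 6 lay between 64.4% and 73.1%.

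miR-17*, from the proliferation-linked miR-17-92 cluster, measured 16.4% and 16.7% in mock cells, 19.98% and 21.8% with c-Src, 19.8% and 18.7% with both, and 15.4% and 16.9% with Csk. Both groups with c-Src lay above both groups without it. Its neighbour miR-20a* measured 6.09% and 5.79%, 6.25% and 6.06%, 5.86% and 6.79%, and 5.36% and 3.98% in the same order, with the lowest value on Csk array 2. miR-106b*, from the paralogous cluster within Mcm7, stayed between 6.63% and 7.78% over the 8 arrays (6.63% and 7.61% in mock, 7.37% and 7.63% with c-Src, 7.43% and 6.89% with both, 7.47% and 7.78% in Csk cells). Only the Csk+c-Src and Csk arrays of this strand did not overlap with each other.

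miR-674*, a rodent microRNA strand, measured 13.2% and 13.8% in mock cells, 18.5% and 20.2% with c-Src, 12.95% and 14.0% with both, and 10.6% and 11.8% with Csk. The c-Src arrays were highest and the Csk arrays lowest. miR-15b*, whose precursor is paired with miR-16 inside Smc4, measured 10.2% and 10.5%, 10.01% and 10.6%, 10.2% and 9.66%, and 13.2% and 13.4%, again in the order mock, c-Src, Csk+c-Src and Csk. Here only the Csk arrays were apart.

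miR-22* followed the same order with 6.33% and 6.19%, 4.78% and 4.76%, 8.41% and 7.89%, and 13.4% and 13.4%. Its 4 groups did not overlap at all, with c-Src lowest and Csk highest. miR-22 is widely studied as a tumour suppressor and its star is cut from the opposite arm of the same hairpin.

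A further pair of members with high signals was highest in mock cells. miR-877*, cut from a short intron of Abcf1, measured 9.51% and 9.00% in mock cells, 5.72% and 7.67% with c-Src, 8.14% and 8.06% with both, and 8.89% and 6.91% with Csk. let-7b* measured 8.34% and 10.8%, 6.68% and 4.67%, 6.48% and 4.52%, and 7.45% and 6.12%. Both mock arrays lay above all others for both strands, and neither passed in any of the 5 comparisons.

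Adding c-Src to Csk-deficient cells is the comparison closest to the title of the study. In it 13 of 35 star members passed (37.1%), against 44.4% of all microRNAs tested. Of these, 9 were higher with c-Src, where 25.9% of all tested microRNAs were, and 4 were lower, where 18.5% were. The median log2 difference was 0.00 over the members and 0.00 over all microRNAs tested.

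Both detected miR-29 stars rose together. miR-29 guides are known to repress collagen and other matrix genes in fibroblasts. miR-29b* measured 3.32% and 3.37% in mock cells and 6.38% and 6.84% with c-Src, a 1.98-fold rise (log2 0.98, SE 0.10, adjusted p = 0.0011). miR-29a* went from 2.06% and 2.58% to 4.33% and 4.19%, a rise of 1.85-fold (log2 0.89, SE 0.11, adjusted p = 0.0021). The arrays of the groups did not overlap for either strand, which adds no separate support to calls that already passed.

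miR-135a* was detected on neither mock array (both at the 1.93% floor) and measured 3.59% and 4.02% with c-Src, at least 1.97-fold higher (adjusted p = 0.0036). miR-31* rose 1.60-fold, from 66.9% ± 3.58 to 107% ± 6.41 (SD, n = 2; limma adjusted p = 0.0014). Smaller rises that passed were those of miR-7a* (log2 0.60), miR-674* (0.52), miR-17* (0.34), miR-24-2* (0.31) and miR-99b* (0.27). Of the 13 strands that passed, 12 had more than 1 probe with at least 25% of the brightest probe's signal. These probes moved the same way for 11 strands and in opposite directions for miR-99b*.

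miR-24-1* fell from 3.72% and 3.68% to 1.93% on both c-Src arrays (log2 -0.94, SE 0.05, adjusted p = 1.4e-04). It was still detected on both, with 1 of them set to the floor. let-7c-1*, from a gene beside miR-99a, fell from 3.13% and 3.21% to undetected on both c-Src arrays, at least 1.64-fold (adjusted p = 0.032). miR-22* fell by 0.39 on the log2 scale (adjusted p = 8.6e-04), and miR-483*, from an intron of the Igf2 gene, by 0.46 (adjusted p = 0.0023).

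Leaving out each array in turn kept 7 of these 13 calls in all 8 fits, those on miR-135a*, miR-22*, miR-24-1*, miR-29a*, miR-29b*, miR-31* and miR-483*. Without mock replicate 2 the count was 8, and there the adjusted p of let-7c-1*, miR-17*, miR-674* and miR-7a* rose to 0.166, 0.136, 0.058 and 0.0501. The highest adjusted p was 0.219 for miR-24-2* without c-Src replicate 2 and 0.130 for miR-99b* without Csk replicate 2. On values left unscaled, where the median of all microRNAs shifts to 0.31, 20 members passed, 18 of them higher, and the falls of miR-22* (log2 -0.087, adjusted p = 0.478) and miR-483* (-0.15, 0.207) no longer passed. Scaling by all mouse microRNAs ended the calls on miR-24-2* (adjusted p = 0.0579) and miR-99b* (0.0596), and quantile normalization that on let-7c-1* (0.0587).

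**Figure D2:**
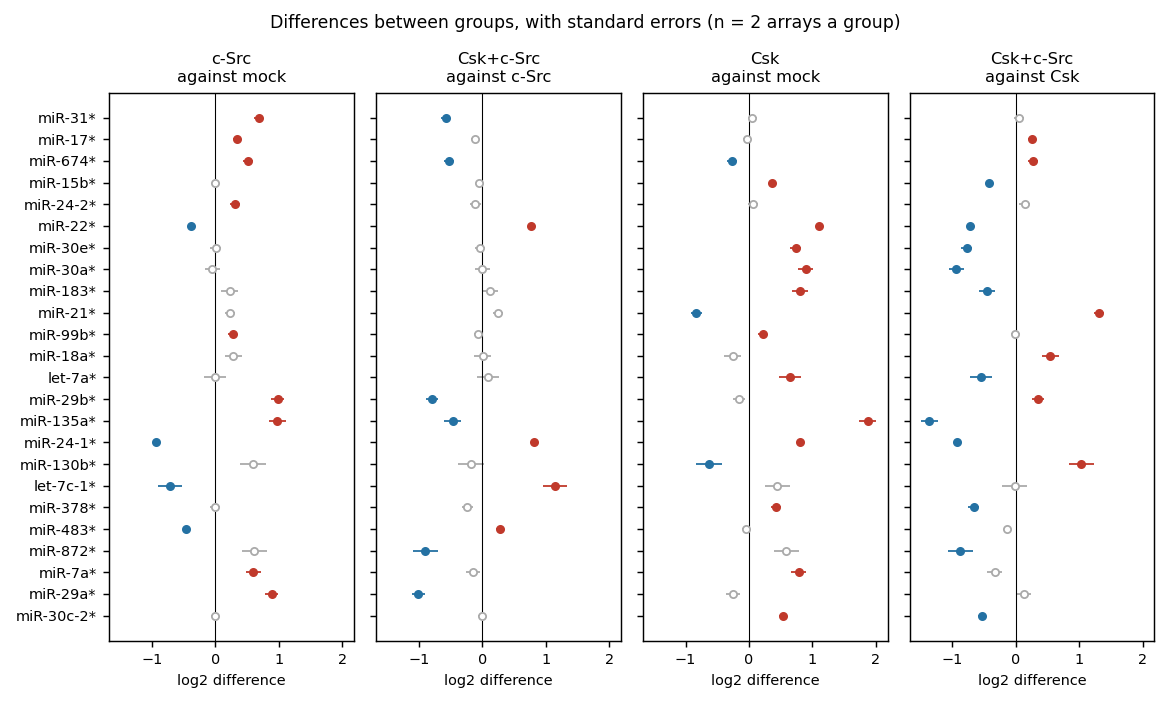
Log2 differences with standard errors for the 24 members that passed in at least 1 comparison, in the 4 pairwise comparisons of group means (n = 2 arrays a group), with red for higher, blue for lower and open grey points for differences that did not pass. miR-29a* and miR-29b* lie on the right in c-Src against mock and on the left in Csk+c-Src against c-Src, miR-22* and miR-24-1* the other way round.

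Returning Csk to cells with c-Src was the next comparison, and it shares the c-Src arrays with the one above, so opposite signs are partly built in. Here 10 of 35 members passed (28.6%), against 44.9% of all microRNAs tested; 4 were higher (15.6% of all tested) and 6 lower (29.2%). The median difference was 0.00 over the members and -0.08 over all microRNAs.

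miR-29a* fell to 2.09% and 2.15% with Csk and c-Src (log2 -1.01, SE 0.11, adjusted p = 0.0011), values within the range of the mock arrays. miR-29b* fell to 3.599% and 4.04% (log2 -0.79, SE 0.10, adjusted p = 0.0021). miR-31* fell by 0.58 and miR-674* by 0.52 on the log2 scale (adjusted p = 0.0022 and 0.0039). In each of these 4 the c-Src arrays lay above both Csk+c-Src arrays, which adds no separate support, since they were picked for passing.

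miR-872*, whose gene lies within the ciliary transport gene Ift74, measured 3.94% and 3.29% with c-Src and lay at the floor on both Csk+c-Src arrays, 1 of which detected it, at least 1.86-fold lower (adjusted p = 0.015). On the other arrays it was at 2.81% and 1.97% in mock cells and at 3.87% and 3.24% with Csk. miR-135a* fell to 2.41% and 3.15% (log2 -0.46, adjusted p = 0.039).

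The rises were those of let-7c-1*, which reached 3.86% and 4.73% from undetected (at least 2.21-fold, adjusted p = 0.0061), of miR-24-1*, which reached 3.37% and 3.47% (log2 0.82, adjusted p = 2.1e-04), of miR-22* (log2 0.77, adjusted p = 8.4e-05) and of miR-483* (log2 0.28, adjusted p = 0.012). let-7c-1* stood at 3.595% and 5.21% in Csk cells, so c-Src alone was the only group that did not detect it.

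The calls on miR-22*, miR-24-1*, miR-29a*, miR-29b*, miR-31* and miR-674* remained in all 8 fits that left out 1 array, and 6 members passed without c-Src replicate 2. The call on miR-135a* ended in 7 of these fits, with a log2 difference of -0.32 without Csk replicate 2 (adjusted p = 0.243). That on miR-872* ended in 5 fits (0.0873 without c-Src replicate 1), that on miR-483* in 3 (0.0732 without c-Src replicate 2) and that on let-7c-1* in 1 (0.0548 without c-Src replicate 2). Scaling by all mouse microRNAs gave 6 higher and 5 lower, unscaled values 3 and 9, and quantile normalization 5 of each. The call on miR-135a* ended with the first (adjusted p = 0.273) and the last (0.156) of these, and that on miR-483* on unscaled values (0.203).

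Csk without added c-Src was compared with mock. This comparison had 15 of 35 members past the threshold (42.9%), against 55.1% of all microRNAs tested, with 12 higher (38.3% of all tested) and 3 lower (16.9%). The median difference was 0.06 over the members and 0.07 over all microRNAs. It shares the mock arrays with the first comparison.

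The miR-30 stars rose with Csk. miR-30 guides are known as repressors of mesenchymal genes. miR-30a* measured 5.28% and 4.69% in mock cells, 4.75% and 4.88% with c-Src, 4.501% and 5.17% with both, and 8.50% and 10.02% with Csk. miR-30e* measured 5.56% and 6.14%, 5.56% and 6.15%, 5.78% and 5.62%, and 9.23% and 10.3%. For both strands the Csk arrays stood above all 6 others, and the rises over mock were 1.85-fold (log2 0.89, SE 0.11, adjusted p = 0.0017) and 1.67-fold (log2 0.74, SE 0.08, adjusted p = 0.0011). miR-30c-2* lay at the floor on all 6 other arrays and at 2.61% and 2.98% in Csk cells, at least 1.44-fold above mock (adjusted p = 0.0013). Of the 4 miR-30 stars tested, miR-30b* (log2 0.45) did not pass, and the list's median was 0.63.

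miR-135a* reached 7.10% and 7.07% with Csk, at least 3.67-fold above the mock arrays (adjusted p = 2.4e-04). miR-22* rose 2.14-fold (log2 1.10, SE 0.04, adjusted p = 2.9e-05). miR-24-1* rose to 6.16% and 6.82% (log2 0.81, SE 0.05, adjusted p = 2.0e-04). miR-183* (log2 0.80), miR-7a* (0.78), let-7a* (0.64), miR-378* (0.42), miR-15b* (0.36) and miR-99b* (0.22) also rose.

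miR-21*, the partner of an oncogenic microRNA that is abundant in fibroblasts, fell with Csk. It measured 5.23% and 5.10% in mock cells, 6.47% and 5.63% with c-Src, 7.51% and 6.87% with both, and 2.96% and 2.86% with Csk. The fall was 1.78-fold (log2 -0.83, SE 0.08, adjusted p = 6.2e-04), and 1 of the 2 Csk arrays detected it. miR-130b* measured 2.55% and 3.78% in mock cells, 4.66% and 4.67% with c-Src, 4.54% and 3.75% with both, and 1.93% and 2.09% with Csk, where neither array detected it. It was at least 1.54-fold lower with Csk than in mock cells (adjusted p = 0.048). miR-674* fell by 0.27 on the log2 scale (adjusted p = 0.033).

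Without each array in turn, 9 of the 15 calls remained in all 8 fits, those on miR-135a*, miR-15b*, miR-21*, miR-22*, miR-24-1*, miR-30a*, miR-30c-2*, miR-30e* and miR-7a*. The highest adjusted p without Csk replicate 2 was 0.158 for let-7a*, 0.0594 for miR-183* and 0.312 for miR-99b*. Without mock replicate 2 it was 0.0917 for miR-378* and 0.224 for miR-674*, and without Csk replicate 1 it was 0.172 for miR-130b*. With scaling over all mouse microRNAs, 10 members were higher and 5 lower. It ended the calls on let-7a* (adjusted p = 0.0911), miR-130b* (0.0586) and miR-99b* (log2 0.043, adjusted p = 0.627). Quantile normalization also ended the call on miR-130b* (log2 -0.43, adjusted p = 0.251). Unscaled values ended those on miR-99b* (0.0948) and miR-674* (0.0839).

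Adding c-Src where Csk was present, Csk+c-Src against Csk, had the most members past the threshold, 17 of 35 (48.6%), against 60.9% of all microRNAs tested. Of these 6 were higher (19.3% of all tested) and 11 lower (41.6%), and the median difference was -0.03 over the members and -0.15 over all microRNAs. It shares the Csk arrays with the comparison before it.

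miR-21* rose 2.47-fold (log2 1.30, SE 0.08, adjusted p = 1.0e-04), miR-130b* at least 2.05-fold (adjusted p = 0.0077) and miR-18a*, from the miR-17-92 cluster, 1.46-fold (log2 0.55, adjusted p = 0.019). miR-29b* (log2 0.35), miR-674* (0.27) and miR-17* (0.26) also rose. The Csk+c-Src arrays lay above both Csk arrays for all 6, which adds no separate support, since these 6 were picked for passing.

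miR-135a* fell by 1.37 on the log2 scale (SE 0.13, adjusted p = 5.1e-04), miR-30a* by 0.94 (SE 0.11, adjusted p = 0.0012), miR-24-1* by 0.92 (SE 0.05, adjusted p = 8.4e-05) and miR-30e* by 0.77 (SE 0.08, adjusted p = 7.7e-04). miR-22* (log2 -0.72), miR-378* (-0.66), let-7a* (-0.55), miR-183* (-0.46) and miR-15b* (-0.42) fell as well. miR-872* and miR-30c-2* fell to the floor on both Csk+c-Src arrays, by at least 1.83-fold and 1.44-fold. miR-22* at 8.15% ± 0.368 with both genes stayed above mock (6.26% ± 0.0950; SD, n = 2 arrays each), although that pair of groups was not tested.

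In the fits without 1 array, 10 of the 17 calls remained throughout, those on miR-130b*, miR-135a*, miR-15b*, miR-21*, miR-22*, miR-24-1*, miR-30a*, miR-30c-2*, miR-30e* and miR-378*. Csk replicate 2 carried part of several falls: without it the log2 difference was -0.31 for let-7a* (adjusted p = 0.399), -0.22 for miR-183* (0.501), -0.40 for miR-378* (0.0339) and -0.62 for miR-30a* (0.0427). Without Csk+c-Src replicate 2, 10 members passed, and the adjusted p was 0.218 for miR-29b* and 0.236 for miR-674*. The remaining losses were miR-17* without mock replicate 2 (0.105), miR-18a* without Csk+c-Src replicate 1 (0.0757) and miR-872* without Csk replicate 1 (0.0773). Scaling by all mouse microRNAs turned the split to 12 higher and 8 lower, and quantile normalization to 10 and 9, with median shifts to 0.11 and 0.02. The first of these ended the calls on miR-15b* (log2 -0.075, adjusted p = 0.282), let-7a* (0.402) and miR-183* (0.443), and the other 14 passed under all 3 scalings tried.

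The effect of c-Src with Csk present minus that without it, the interaction, passed for 15 of 35 members (42.9%), against 50.6% of all microRNAs tested. The difference was negative for 13 of them (37% of all tested) and positive for miR-21* and miR-483* (13.6%). The median was -0.17 both over the members and over all microRNAs tested. Scaling by all mouse microRNAs shifted the overall median to 0.13 and left 10 members, 6 positive and 4 negative. Of the 15 calls, 5 passed under all 3 scalings tried, those on miR-135a*, miR-21*, miR-30a*, miR-30c-2* and miR-872*. miR-135a* rose with c-Src in cells without Csk and fell with it in cells with Csk (adjusted p = 5.1e-04). Its difference of -2.34 is a lower bound in size, since both mock arrays were at the floor, and so is that of miR-872* (-1.48, adjusted p = 0.0085), with both Csk+c-Src arrays there. miR-21* had the opposite sign (1.08). miR-24-1* fell with c-Src both without Csk (-0.94) and with it (-0.92), and its interaction did not pass (0.01, SE 0.08, adjusted p = 0.919). With scaling by all mouse microRNAs these falls were -0.87 and -0.58, and 1 c-Src array was at the floor.

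The 2 miR-24 stars come from 2 genes that share 1 mature guide. miR-24-2* measured 8.35% and 9.02% in mock cells, 10.4% and 11.1% with c-Src, 9.98% and 9.95% with both, and 8.43% and 9.74% with Csk. miR-24-1* was lowest with c-Src and highest with Csk, as given above, whereas miR-24-2* was highest with c-Src and its Csk and mock arrays overlapped. The neighbours split in the same way with c-Src. These neighbours are not star members and were chosen after their values were seen. Beside miR-24-1*, miR-23b changed by -1.18 on the log2 scale (SE 0.05, adjusted p = 6.2e-05), and miR-27b went from 195% and 211% in mock cells to 86.8% and 92.7%. Beside miR-24-2*, miR-23a changed by 0.40 (SE 0.06, adjusted p = 0.0042), and miR-27a went from 290% and 316% to 342% and 378%. The shared guide miR-24 changed by -0.34 (SE 0.04, adjusted p = 0.0021). Since the stars' names carry a gene number that the guide's name lacks, the guide was matched without it in an alternative fit: relative to miR-24, miR-24-1* fell by 0.59 (SE 0.10) and miR-24-2* rose by 0.65 (SE 0.10) with c-Src, both with a limma adjusted p = 0.0095. In Csk+c-Src against Csk the same ratios changed by -0.34 (adjusted p = 0.044) and 0.71 (adjusted p = 0.0041).

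**Figure D3:**
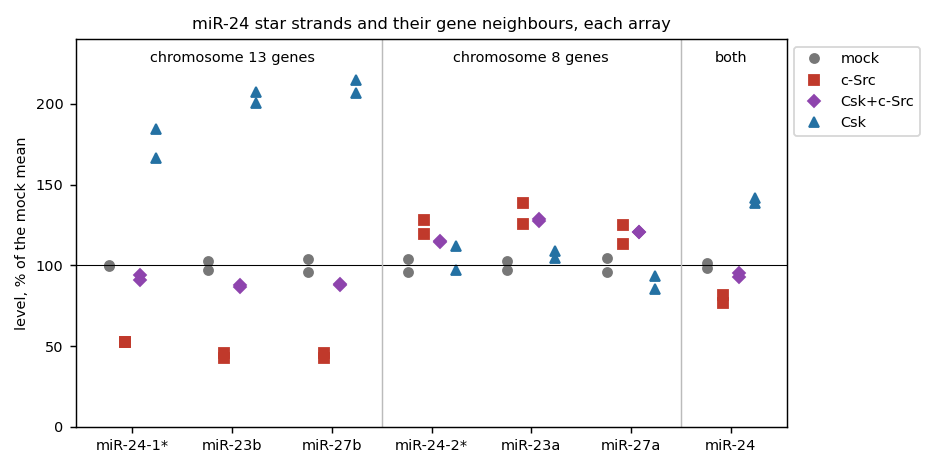
Levels on each array, as percent of the mock mean, of miR-24-1* and its chromosome 13 neighbours miR-23b and miR-27b, of miR-24-2* and its chromosome 8 neighbours miR-23a and miR-27a, and of the guide miR-24 that both genes encode. The c-Src arrays are the lowest of the 4 groups for the chromosome 13 strands and lie above mock for the chromosome 8 strands.

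Star to guide ratios were fitted for the 28 members tested together with a tested guide of the same name, within 32 pairs in all. Over the arrays the mean star signal ran from 0.156% of the guide's (miR-21*) to 338% (miR-674*), with a median of 4.24%. It was under 10% for 19 pairs and above the guide's for 3, miR-674*, miR-17* (173%) and miR-483* (131%). These are ratios of different probes and not molar ratios. The guide miR-483 was detected on only 3 arrays and measured 1.93% to 4.08%, near the floor, so the miR-483* ratio rests on a dim guide. The current names of let-7a*, let-7f*, miR-29b* and miR-7a* carry a gene number that their guides' names lack, as with miR-24. The part of other genes for these guides in the ratios was not tested.

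The star and its guide mostly changed together. Across the 28 pairs, which are not independent since arrays and clusters are shared, the log2 differences of star and guide correlated at r = 0.67, 0.81, 0.46 and 0.79 in the 4 pairwise comparisons in the order given above. For the 21 pairs whose star was never at the floor, r was 0.59, 0.78, 0.38 and 0.79. The ratio changed by less than 1.5-fold for 24, 27, 22 and 25 of the 28 pairs in the 4 comparisons.

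When c-Src was added to mock cells, and when Csk was added to c-Src cells, limma called 0 of 28 ratios in each case, as it called 0% of the 32 pairs, and 4 in each had an unadjusted p under 0.05. The rises of miR-29a*, miR-29b* and miR-31* with c-Src thus came with changes of their guides of 0.92, 1.09 and 0.66 on the log2 scale, and miR-22* and miR-22 changed by -0.39 and -0.47.

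**Figure D4:**
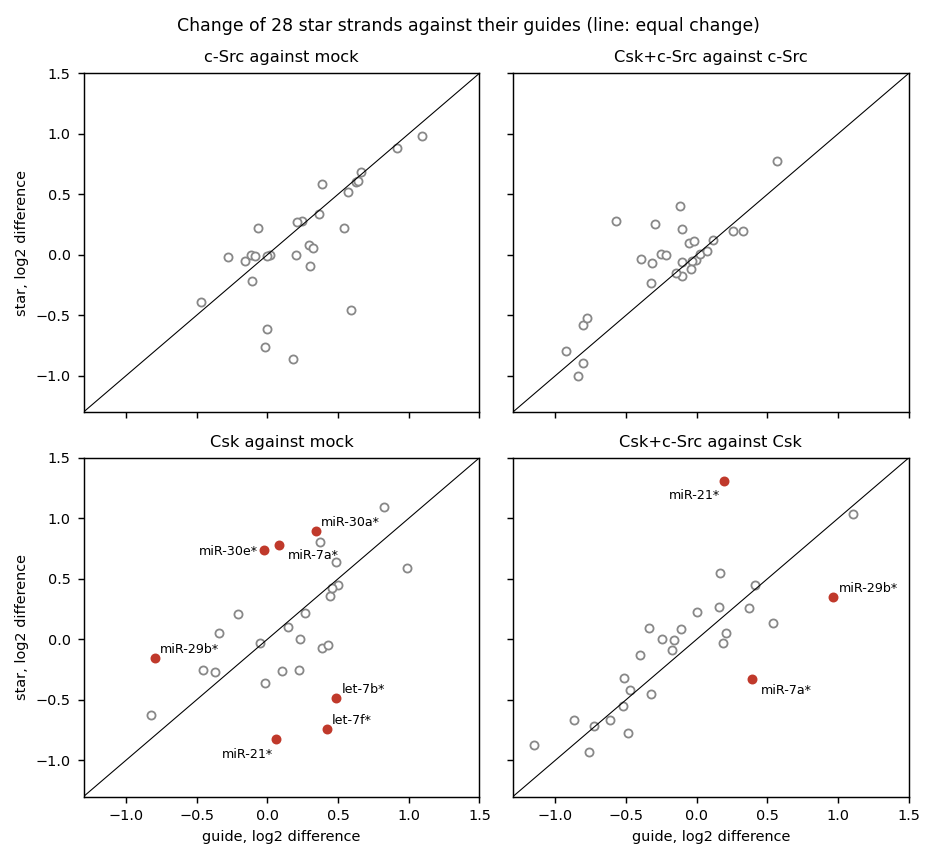
Log2 difference of the star against that of its guide for 28 pairs in 4 comparisons, with the line of equal change and with pairs whose ratio passed the test in red. In the upper panels no pair passed, and in the lower panels 7 and 3 pairs did.

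Csk against mock had 7 of 28 ratios past the threshold (25%), the same share as among all pairs fitted (25%). Of these, 4 were higher (15.6% of the pairs) and 3 lower (9.38%). The miR-30e* signal was 6.83% and 7.34% of the miR-30e signal on the mock arrays and 11.2% and 12.9% on the Csk arrays (log2 0.76, SE 0.12, adjusted p = 0.0040), while miR-30e itself changed by -0.02. miR-29b* went from 1.91% and 1.77% to 2.73% and 2.999% of its guide (log2 0.64, adjusted p = 0.0076), with the guide down by 0.80 and the star by 0.16. miR-7a* (ratio log2 0.70, adjusted p = 0.013) and miR-30a* (0.55, adjusted p = 0.028) also rose against their guides.

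miR-21* went the other way, from 0.189% and 0.165% of the miR-21 signal to 0.106% and 0.0860% (log2 -0.89, SE 0.17, adjusted p = 0.0083), while miR-21 changed by 0.06. let-7f* fell from 1.38% and 1.77% to 0.845% and 0.573% of its guide (log2 -1.16, adjusted p = 0.013). let-7b* fell from 4.28% and 4.71% to 2.68% and 1.95% of its guide (log2 -0.98, adjusted p = 0.042). The guides let-7f and let-7b changed by 0.42 and 0.49, and their stars by -0.75 and -0.49, which did not pass. On the c-Src and Csk+c-Src arrays, too, both ratios lay below both mock arrays. In c-Src against mock they changed by -1.05 and -0.74, which did not pass. The signals of let-7f* and let-7b* were spread evenly over their 4 probes, with the brightest holding 26.5% for let-7f* and 27.8% for let-7b*. miR-877* (26.2%), miR-191* (29.1%) and miR-30b* (34.8%) were alike in this, whereas for the other 30 tested members the brightest probe held 48.7% to 93.6%. The part of this pattern in the falls was not tested.

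Adding c-Src to Csk cells moved 3 of 28 ratios (10.7%), against 12.5% of all pairs, 1 up (3.12% of the pairs) and 2 down (9.38%). The miR-21* ratio rose to 0.221% and 0.194% (log2 1.12, SE 0.17, adjusted p = 0.0078), above both Csk arrays. Those of miR-7a* (log2 -0.72, adjusted p = 0.015) and miR-29b* (-0.62, adjusted p = 0.010) fell. The 3 members passed in both Csk comparisons, which share the Csk arrays.

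The ratio calls rested on few arrays. In Csk against mock those on miR-29b* and miR-30e* remained in all 8 fits, and 3 ratios passed without Csk replicate 2, where the adjusted p was 0.190 for let-7b*, 0.0784 for let-7f*, 0.0506 for miR-21* and 0.166 for miR-30a*. That of miR-7a* was 0.0533 without mock replicate 2, and without mock replicate 1 10 ratios passed. In Csk+c-Src against Csk 0 passed by limma without Csk+c-Src replicate 1, where the adjusted p was 0.0764 for miR-21* and 0.109 for miR-29b* and miR-7a*.

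**Figure D5:**
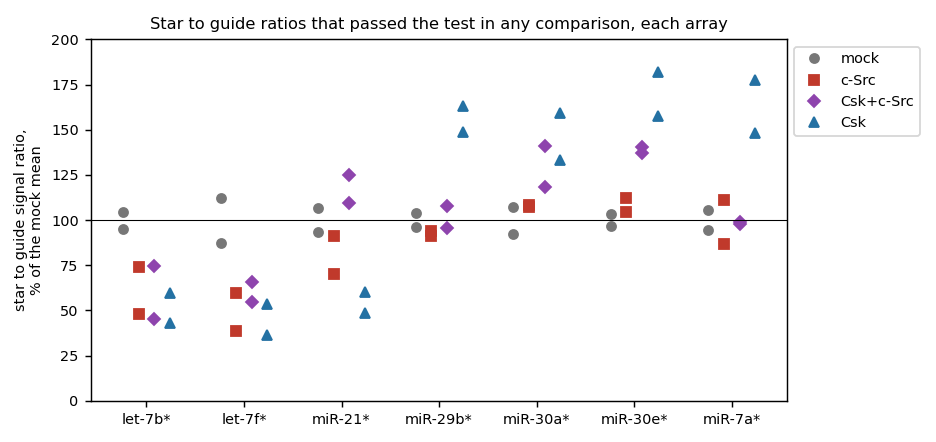
Star to guide signal ratio on each array, as percent of the mock mean, for the 7 members whose ratio passed in any comparison. The 2 Csk arrays lie below mock for let-7b*, let-7f* and miR-21* and above it for miR-29b*, miR-30a*, miR-30e* and miR-7a*.

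By family, 5 of 7 let-7 stars on the array were detected and tested. let-7c-1* alone passed in c-Src against mock, let-7a* alone in Csk against mock, and let-7d* in none. let-7b* and let-7f* fell short there (log2 -0.76 and -0.86, adjusted p = 0.0747 and 0.0529 in c-Src against mock). The list's median in that comparison was -0.72, against 0.00 for all microRNAs tested.

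The miR-17-92 list and its paralogs had 8 stars on the array and 5 tested. miR-17* passed in both comparisons that added c-Src and miR-18a* in 1 of them, and miR-20a* (log2 0.45, adjusted p = 0.0522), miR-106b* and miR-93* in neither. The list's median was 0.26 in Csk+c-Src against Csk, against -0.15 for all. Both tested miR-29 stars of 3 on the array are described above, and so are both miR-24 stars, the only ones tested of 4 in the list of the miR-23, miR-24 and miR-27 families. miR-15b* was the only tested star of 3 from the miR-15/16 families, and miR-99b* the only one of 2 from the miR-99/100 and miR-125 families. Of the 13 stars from the imprinted Dlk1-Dio3 cluster on the array, 0 were detected on any array. miR-28*, miR-191* and miR-193* completed the tested members and passed in no comparison.

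Star strands of microRNAs typical of other cell types are read against the 35.5% of all members that were detected. From the neural list 1 of 4 on the array was detected (miR-7a*), from the epithelial list 1 of 6 (miR-183*), and from the muscle and blood lists 0 of 1 each, with miR-124*, miR-9*, miR-200a*, miR-200b*, miR-200c*, miR-141*, miR-203*, miR-133a* and miR-150* detected on 0 arrays. The endothelial list had 0 members on the array. miR-7a* measured 1.97% and 1.93% in mock cells, 3.28% and 2.65% with c-Src, 2.66% and 2.67% with both, and 3.57% and 3.15% with Csk. miR-183* measured 4.78% and 3.67%, 5.06% and 4.73%, 5.49% and 5.15%, and 7.10% and 7.49%. Their genes lie within the widely transcribed Hnrnpk and within Mirc35hg, and a part of other cells in their changes was not tested.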

How the data were processed

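MicroRNAs of 8 RNA samples were measured on 8 one-colour (Cy3) Agilent mouse arrays of 1 slide. Per the file headers, Feature Extraction 9.5.3.1 produced the deposited intensities: it subtracted a spatially detrended background, marked outlier spots and did no scaling between arrays. The deposited series table holds the same gene intensities with values under 1 set to 1. Detection is the software's call per microRNA.

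From there, spots of a probe were averaged without controls and outliers, probes of a microRNA were summed, and sums were divided by the array's 75th percentile over 187 microRNAs (611.9 to 805.7 signal units). The floor, 1.93% of that scale, was taken from the 5th percentile of detected signals, computed for each array, as the median of these 8 values. limma 3.58.1 (R 4.3.3) fitted 4 group means on the log2 scale to the 243 microRNAs that both arrays of some group detected, with 4 residual degrees of freedom per microRNA and 5.09 after moderation. p-values are two-sided with Benjamini-Hochberg adjustment over all 243, or over all 32 pairs for the log2 ratio of star to guide. An exact permutation test of 2 against 2 arrays cannot go below p = 0.333, so none was used. The number of arrays limits the precision. The fit was tested on simulated data.

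The alternatives changed the scaling, background correction, detection filter, floor, probe summary, outlier spots, arrays in the fit, replicate block, guide matching and each array in turn. In a fit without 1 array, the lone array of its group is assumed to vary like the other groups. The members and lists were chosen with earlier results of these data known. The naming rule gave values of each array for the 12 tested members of the highest mean level and for members with a log2 difference of at least 0.8 past the threshold, up to 20 in all, and named the other tested members. Older names were matched by hand to current arms, and sequences and positions came from RefSeq (GRCm38.p6). Figures were drawn with matplotlib 3.10.9 (Python 3.11.15).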

Additional observations from a re-analysis of the deposited data

Results flagged for a closer look

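The effect of c-Src differed between cells with and without Csk, by limma's test of the difference itself, for 15 of 35 members (42.9%). Of all microRNAs tested, 50.6% passed the same test. Under all 3 scalings tried, 5 of the 15 passed. The difference, on the log2 scale, is the effect of c-Src with Csk minus that without, and it shares all 8 arrays with the 4 pairwise comparisons. It was -2.34 for miR-135a*, -1.48 for miR-872*, -0.93 for miR-7a*, -0.89 for miR-30a*, -0.77 for miR-30e*, -0.75 for miR-29a*, -0.68 for miR-183* and -0.66 for miR-378*. It was -0.63 for both miR-29b* and miR-31*, -0.53 for miR-30c-2*, -0.41 for miR-15b* and -0.32 for miR-22*. For miR-21* it was 1.08 and for miR-483* 0.32. The values of miR-135a* and miR-872* are lower bounds in size, since 1 group of each was at the floor on both arrays. The size for miR-29a* may instead be too large, since both of its Csk arrays were at the floor. Its value was -0.33 unscaled, -0.58 scaled by all mouse microRNAs and -0.84 with quantile normalization (limma adjusted p = 0.158, 0.0507 and 0.0037). For miR-30c-2* 3 groups were at the floor, so the value rests on the Csk arrays alone.

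These values were read against a median of -0.17 over all 243 microRNAs tested. In the 8 fits that each left out 1 array, 4 of the 15 remained past the threshold throughout, namely miR-135a*, miR-21*, miR-30e* and miR-872*. Without Csk replicate 2 the difference was -0.12 for miR-22* (limma adjusted p = 0.262), -0.31 for miR-29b* (0.174), -0.44 for miR-183* (0.293), -0.57 for miR-30a* (0.112) and -0.39 for miR-378* (0.0810), and the adjusted p was 0.0618 for miR-29a* and 0.0628 for miR-7a*. Without Csk+c-Src replicate 2 it was 0.0652 for miR-15b*, 0.0629 for miR-30c-2* and 0.0581 for miR-31*, and without mock replicate 2 it was 0.129 for miR-483*. Scaling by all mouse microRNAs gave -0.37 for miR-30e* (adjusted p = 0.0598). Under normexp 12 of the 15 had the opposite sign. Groups of 2 arrays were too small for a test of single outlying arrays.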

How the results depend on the processing

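With normexp 7 members passed in c-Src against mock, 1 in Csk+c-Src against c-Src, 0 in Csk against mock, 0 in Csk+c-Src against Csk and 1 in the interaction, and 16 and 2 ratios passed in the first and second comparison. Its log2 differences of opposite sign were, in c-Src against mock, -0.48 for miR-135a*, -0.042 for miR-17*, -0.23 for miR-24-2*, -0.49 for miR-29a*, -0.40 for miR-29b*, -0.13 for miR-674*, -0.34 for miR-7a* and -0.50 for miR-99b*, and 0.033 for miR-135a* in Csk+c-Src against c-Src. In Csk against mock they were -0.24 for let-7a*, -0.15 for miR-135a*, -0.18 for miR-15b*, -0.24 for miR-183*, -0.093 for miR-24-1*, -0.00692 for miR-30a*, -0.27 for miR-30c-2*, -0.032 for miR-30e*, -0.22 for miR-378*, -0.21 for miR-7a* and -0.31 for miR-99b*, with ratios of -0.33 for miR-30a*, -0.00515 for miR-30e* and -0.12 for miR-7a*. In Csk+c-Src against Csk they were -0.015 for miR-130b*, -0.059 for miR-18a*, -0.11 for miR-29b*, -0.000584 for miR-674* and -0.20 for the ratio of miR-21*. In the interaction they were 0.18 for miR-135a*, 0.25 for miR-15b*, 0.34 for miR-183*, 0.15 for miR-22*, 0.40 for miR-29a*, 0.29 for miR-29b*, 0.089 for miR-30a*, 0.27 for miR-30c-2*, 0.093 for miR-30e*, 0.22 for miR-378*, 0.21 for miR-7a* and 0.31 for miR-872*. The median dim probe rose most on mock array 1, as given above, and the part of this in the sign changes was not tested. Under percentile scaling over all mouse microRNAs the interaction of miR-22* was 0.082. When probes were averaged as log2 values instead of summed, miR-99b* was -0.012 in c-Src against mock, and miR-483* was 0.00 in Csk+c-Src against c-Src and -0.029 in the interaction.

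Of the 70 called differences of members, 69 kept their direction and 46 their call under the 3 other scalings. Counts of members past the threshold moved to 20 (unscaled) and 8 (no detection filter) when c-Src was added to mock cells, and to 6 (only microRNAs detected on all arrays) when Csk was added to c-Src cells. They moved to 9 (no detection filter) in Csk+c-Src against Csk and to 9 (detected on all arrays) in the interaction. Leaving out each array in turn gave 8 to 13, 6 to 10, 11 to 15, 10 to 16 and 8 to 16 members in the 5 comparisons and 0 to 2, 0 to 2, 3 to 10 and 0 to 3 ratios. Ratio counts in the 4 comparisons, in the same order, were 15, 14, 20 and 15 with log2 values averaged and 14, 18, 20 and 21 with no detection filter. Fits of only the groups compared gave 4 and 1 in the first and second comparison. Detection on all arrays gave 4 in Csk against mock, and 1 when c-Src was added to Csk cells, and looser guide matching gave 4 and 3 in the first and second comparison and 8 in Csk+c-Src against Csk. The causes were not tested. Kept spots marked as outliers and values without a floor left all 9 counts within 1.5 times.

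Same-numbered arrays also shared a row of the slide, and in each group fewer members were detected on array 2 (28 to 32) than on array 1 (33 to 36). Their deviations from the group means correlated at -0.0912 to 0.438, not above 0.1 in every pair, so the numbers were not taken to pair the arrays. With the replicate block 15, 12, 16, 17 and 17 members passed in the 5 comparisons and 0, 2, 12 and 3 ratios. Dim signal limits the stars: 24 of 35 tested members were above the floor on all arrays, and differences within the floor cannot be seen.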
